A study of Mus musculus with 8 samples.

Results

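The Toll-like receptors and their chaperone Unc93b1 were followed in mouse bone marrow-derived macrophages (BMDMs) given sphingosine. The 10 genes were taken by name from the 55357 genes listed: the surface receptors Tlr1, Tlr2, Tlr4 and Tlr6, the endosomal receptors Tlr3, Tlr7, Tlr8, Tlr9 and Tlr13, and Unc93b1. All 10 were among the 14514 genes with enough counts to be tested. The BMDMs came from the femur and tibia of wild-type C57BL/6J mice and were grown with 10 ng/ml M-CSF, a macrophage growth factor, for 5 to 6 days. In the So(d18:1) group, 4 libraries were made from cells given 2 μM sphingosine d18:1 in methanol for 6 h, and in the Control group 4 were made from cells given methanol for the same time. No inflammatory stimulus stands in the labels, although the study's text speaks of cells under inflammatory stimulation. Neither gives the age of the mice or says from how many mice the libraries of a group came, and the study calls its samples independent; p-values measure the spread between these libraries, which may be technical.

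Toll-like receptors are membrane proteins that bind microbial molecules through an outer or luminal domain of leucine-rich repeats and signal through a TIR domain on the cytosolic side. TLR2, paired with TLR1 or TLR6, binds bacterial lipopeptides at the cell surface, and TLR4 binds lipopolysaccharide together with MD-2. The endosomal receptors bind nucleic acids: TLR3 double-stranded RNA, TLR7 and TLR8 single-stranded RNA, TLR9 DNA with unmethylated CpG and TLR13, a receptor that mice have and humans lack, a stretch of bacterial ribosomal RNA. UNC93B1 escorts the endosomal receptors from the endoplasmic reticulum to endolysosomes, where proteases cut several of them into their signalling form.

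Of the 10 genes, Tlr1 and Tlr9 fell, Unc93b1 rose and the other 7 did not pass the test. Tlr1 fell by 17.7% (95% interval of the change -23.2% to -11.8%). Tlr9 fell by 23.4% (interval -30.8% to -15.0%). The increase of Unc93b1 was 11.5% (interval 4.51% to 19.1%). The call was an adjusted p under 0.05 by edgeR's quasi-likelihood test with Benjamini-Hochberg adjustment over all 14514 genes, which 8.94% of all tested genes met. Counted by direction, 2 of the 10 fell where 5.07% of all tested genes did, and 1 rose where 3.87% did. By mean counts scaled to library size, 51.7% of all tested genes lay below Tlr3, the member with the lowest mean. The shares of all tested genes, here and below, are therefore not matched in level to the genes they stand beside. Whether level changes the share called was not tested. No member reached the threshold of the paper's methods, an unadjusted p under 0.05 with a fold change of at least 1.5, which 3.89% of all tested genes reached. The count was also 0 by DESeq2 and by limma-voom. At an unadjusted p under 0.05 alone, 5 of the 10 passed by edgeR, where 23.4% of all tested genes did. The groups did not overlap for 3 of the 10 genes, where they did not for 15% of all tested genes. Without its sign, the log2 fold change of the 10 had a median of 0.11, and that of all tested genes was also 0.11.

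The libraries held between 17748397 and 26088609 counts. TMM factors, which correct library totals for composition, lay between 0.989 and 1.01. Replicates differed by more than counting noise, with a chi-square per gene of at least 2.75 between any pair within a group. In the Control group it was 2.75 between replicates 1 and 2 and 3.76 between replicates 3 and 4. For the other Control pairs it was 5.68 to 12.1, and for the So(d18:1) pairs 2.77 to 7.49. The cause of this pattern was not tested. All 8 macrophage markers were tested, with Csf1r at 6234 CPM, counts scaled to the size of the library, and Adgre1 at 2213 CPM on average in Control libraries. These 2 did not pass, but Itgam rose and Cd68 and Mertk fell. Of all tested genes, 3.87% rose and 5.07% fell. Summed over the 8 macrophage markers, the level was 30650 to 32994 CPM in Control libraries against 26524 to 31476 CPM in So(d18:1) libraries. Most of it was Lyz2, at 20723 CPM on average in Control libraries, which did not pass. Summed over 8 neutrophil markers, the level was 1682 to 2325 CPM in Control libraries against 1325 to 1506 CPM in So(d18:1) libraries, and 4 of the 8 markers fell and none rose. Over 5 B cell markers the sum was 16.5 to 19.4 CPM in Control libraries against 13.3 to 17.1 CPM in So(d18:1) libraries, with 1 of 5 called, Pax5, which fell. Over 4 monocyte markers it was 1174 to 1488 CPM against 1113 to 1233 CPM, with 2 of 4 called, both lower. Most of the monocyte sum was Ccr2, at 1276 CPM on average in Control libraries, which did not pass. None of these markers was at 0 in all libraries. Neutrophils, B cells and monocytes carry Toll-like receptors too, and the part of these shifts in the receptor values below was not tested. In bulk RNA, fewer cells of a type and less RNA per cell cannot be told apart. Tlr7, Tlr8 and Tlr13 lie on the X chromosome. The study states that the wild-type C57BL/6J mice it bought were male. Xist averaged 0.262 CPM in Control libraries against 0.111 CPM in So(d18:1) libraries, with overlapping groups and too few counts to be tested. The 4 Y-linked genes examined did not pass, and each was at 54.5 CPM or more in every library of both groups.

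The sequences upstream of the receptors that fell are shown first, since Tlr1 and Tlr9 moved in the same direction and sit on different chromosomes. RefSeq's promoter table of build GRCm38.p6 runs from 250 bases before to 50 bases after a start site and has entries for 7 of the 10 genes. Tlr1 has 2 entries on the minus strand, at chr5:64933509-64933808 and chr5:64932650-64932949, and Tlr9 has 1 on the plus strand, at chr9:106222348-106222647. All 3 are written 5′ to 3′ on the strand of the gene, and capitals mark matches to 6 motifs searched on both strands. The motifs were GAGGAA, which holds the core bound by ETS factors such as PU.1, CACGTG (E-box) and TGACGTCA (CRE). The AP-1 motif was searched as TGA and TCA around any 1 base, the motif of interferon regulatory factors as GAAA and GAAA around any 2 bases, and the NF-kB motif as GGGA and TTCC around any 2 bases. The last 2 and TGACGTCA have no match in the promoters shown.
Tlr1 promoter, first entry: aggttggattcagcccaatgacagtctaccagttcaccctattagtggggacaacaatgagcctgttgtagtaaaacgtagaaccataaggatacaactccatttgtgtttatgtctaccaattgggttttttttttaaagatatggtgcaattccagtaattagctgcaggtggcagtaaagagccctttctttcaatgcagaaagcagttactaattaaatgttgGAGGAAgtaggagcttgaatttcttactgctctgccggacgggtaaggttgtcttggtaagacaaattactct
Tlr1 promoter, second entry: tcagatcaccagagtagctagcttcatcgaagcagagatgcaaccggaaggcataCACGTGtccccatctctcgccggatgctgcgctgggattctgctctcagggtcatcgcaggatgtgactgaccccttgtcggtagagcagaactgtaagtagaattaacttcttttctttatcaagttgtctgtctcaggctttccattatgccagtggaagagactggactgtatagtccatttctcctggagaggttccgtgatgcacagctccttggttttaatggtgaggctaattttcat
Tlr9 promoter: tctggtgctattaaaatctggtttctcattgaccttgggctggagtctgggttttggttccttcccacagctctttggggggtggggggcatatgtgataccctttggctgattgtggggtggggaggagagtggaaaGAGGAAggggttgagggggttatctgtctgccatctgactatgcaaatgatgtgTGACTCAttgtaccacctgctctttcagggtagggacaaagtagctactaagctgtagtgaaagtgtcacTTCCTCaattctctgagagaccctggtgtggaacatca
The first entry of Tlr1 holds GAGGAA once and the second holds CACGTG once. The Tlr9 promoter holds GAGGAA at 2 places, 1 on each strand, and the AP-1 motif at 1 place. Of the 32851 promoters in the table, 28.3% hold GAGGAA, 7.15% CACGTG, 7.81% the AP-1 motif, 3.44% that of interferon regulatory factors, 1.47% that of NF-kB and 1.79% TGACGTCA. GAGGAA also stands in the promoters of Tlr8 and Tlr13, which did not pass the test. The Tlr3 promoter holds the NF-kB motif, and 1 of the 2 Tlr6 entries holds that of interferon regulatory factors. The Tlr2 promoter and the other Tlr6 entry hold none of the 6 motifs.

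Tlr1 and Tlr6 lie next to each other on the minus strand of chromosome 5, 18467 bases apart, and are close copies. Of the 50-base words in the Tlr1 transcripts, 13.6% also occur in those of Tlr6, and 12.3% of the Tlr6 words occur in Tlr1. No other pair of the 10 genes shares a 50-base word. The longest identical run of their coding sequences is 229 bases long, from base 1468 to 1696 of the 2385 coding bases of Tlr1 and from base 1507 to 1735 of the 2418 of Tlr6. It is shown because a read that falls inside it cannot be given to one of the genes.
Tlr1 and Tlr6, identical coding run: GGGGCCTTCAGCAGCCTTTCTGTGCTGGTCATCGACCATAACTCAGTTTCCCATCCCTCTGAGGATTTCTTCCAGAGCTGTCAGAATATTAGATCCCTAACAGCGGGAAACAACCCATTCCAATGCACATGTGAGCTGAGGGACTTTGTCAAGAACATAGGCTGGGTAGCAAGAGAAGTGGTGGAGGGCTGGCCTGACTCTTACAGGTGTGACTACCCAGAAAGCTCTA
Capitals mark the bases that are the same in both genes, here the whole run. How the counting handled reads that match several places is not given in the sources used here, so the counts of Tlr1 and Tlr6 are uncertain by such reads.

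Tlr1 (ENSMUSG00000044827, chromosome 5 from 64924679 to 64933563, GRCm38) encodes the partner of TLR2 for triacylated lipopeptides. Its level was 133, 133, 132 and 126 CPM in Control replicates 1 to 4 and 115, 108, 109 and 98.5 CPM in So(d18:1) replicates 1 to 4. Each So(d18:1) library was below each Control library, and Control replicate 4 was the lowest of its group. The mean went from 131 ± 3.35 to 108 ± 6.74 CPM (SD, n = 4 each). On the log2 scale the fitted change was -0.28 with a standard error of 0.048 (adjusted p = 0.000623 by edgeR's quasi-likelihood test). An exact permutation test of CPM gave p = 0.0286 (two-sided), the smallest that 4 against 4 libraries can give. The call held with each library left out in turn, with log2 fold changes between -0.31 and -0.24. In the neighbouring copy Tlr6 (ENSMUSG00000051498, chromosome 5 from 64952031 to 64960097), the partner of TLR2 for diacylated lipopeptides, levels were 55.3, 57.4, 51.3 and 50.3 CPM in Control libraries against 51.3, 55.7, 56.1 and 54.2 CPM in So(d18:1) libraries. These groups overlapped, and the change of Tlr6 was 1.39% with an interval from -6.35% to 9.77% (adjusted p = 0.873, edgeR). Per kilobase of gene length, Tlr1 stood at 2.57 to 2.86 times Tlr6 in Control libraries and at 2.03 to 2.49 times Tlr6 in So(d18:1) libraries, without overlap between the groups.

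The shared partner Tlr2 (ENSMUSG00000027995, chromosome 3 from 83836272 to 83841767) was at 385, 380, 412 and 397 CPM in Control libraries against 354, 333, 387 and 411 CPM in So(d18:1) libraries. So(d18:1) replicates 3 and 4 lay within the Control range and replicates 1 and 2 below it. The change was -5.66% with an interval from -13.0% to 2.28% (adjusted p = 0.396, edgeR). Tlr4 (ENSMUSG00000039005, chromosome 4 from 66827584 to 66930284), the lipopolysaccharide receptor, was at 155, 160, 153 and 141 CPM in Control libraries against 155, 161, 156 and 159 CPM in So(d18:1) libraries. These groups overlapped, with a change of 3.68% and an interval from -2.86% to 10.7% (adjusted p = 0.533, edgeR).

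**Figure D1:**
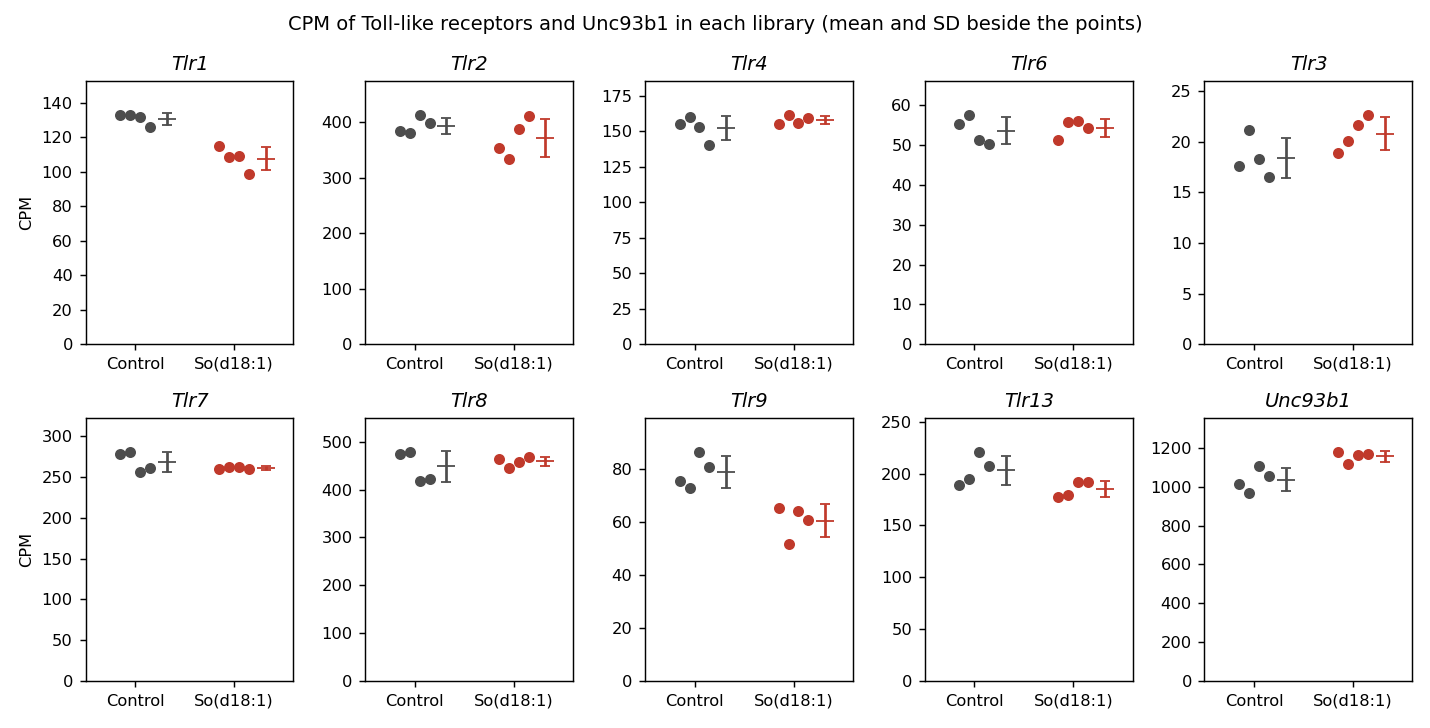
CPM (vertical axis, from 0) of each of the 10 genes in each library, with 4 Control points in grey, 4 So(d18:1) points in red and the mean with its SD beside them. The groups do not overlap for Tlr1, Tlr9 and Unc93b1, and overlap for the other 7 genes.

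Tlr9 (ENSMUSG00000045322, chromosome 9 from 106222598 to 106226883) encodes the receptor for CpG DNA. It was counted at 75.4, 72.9, 86.5 and 80.8 CPM in Control replicates 1 to 4 and at 65.5, 51.8, 64.0 and 60.9 CPM in So(d18:1) replicates 1 to 4. So(d18:1) replicate 2 was the lowest library, and the highest So(d18:1) library was below the lowest Control library. The mean went from 78.9 ± 6.06 to 60.6 ± 6.15 CPM (SD, n = 4 each). On the log2 scale the fitted change was -0.38 with a standard error of 0.070 (adjusted p = 0.00209 by edgeR's quasi-likelihood test). The exact permutation test gave p = 0.0286. With one library left out the log2 fold change lay between -0.42 and -0.31 and the call held each time. Of all genes called in the series, 36.9% had a change at least as large as that of Tlr9. None of its 50-base words occurs in another gene, and no exon of it overlaps another gene. The B cell markers whose sum is given above are carried by cells that use TLR9, and Pax5 was at 0.825 to 1.64 CPM in Control libraries against 0.181 to 0.660 CPM in So(d18:1) libraries. Pax5 had only 4 to 39 counts per library. Most of the sum was Cd79b, which did not pass (adjusted p = 0.753, edgeR). Cd79b was at 12.9 to 14.2 CPM in Control libraries against 11.2 to 14.5 CPM in So(d18:1) libraries. The part of B cells in the change of Tlr9 was not tested.

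Unc93b1 (ENSMUSG00000036908, chromosome 19 from 3935186 to 3949340) was the member with the highest level, also per kilobase. UNC93B1 is the escort that the endosomal receptors share. Unc93b1 was at 1017, 971, 1108 and 1057 CPM in Control replicates 1 to 4 and at 1180, 1118, 1165 and 1169 CPM in So(d18:1) replicates 1 to 4. Each So(d18:1) library was above each Control library, although Control replicate 3 and So(d18:1) replicate 2 were close. The mean went from 1038 ± 58.2 to 1158 ± 27.5 CPM (SD, n = 4 each). On the log2 scale the fitted change was 0.16 with a standard error of 0.045 (adjusted p = 0.0324 by edgeR's quasi-likelihood test; exact permutation p = 0.0286). Leaving out a single library ended this call in 6 of 8 cases. The adjusted p of Unc93b1 by edgeR was then 0.0872, 0.0879 and 0.0583 without Control replicates 1, 2 and 4, and 0.0817, 0.0614 and 0.0554 without So(d18:1) replicates 1, 3 and 4, while its log2 fold change stayed between 0.13 and 0.19. Per kilobase, Unc93b1 stood at 1.18 to 1.41 times the summed level of the 5 endosomal receptors in Control and at 1.48 to 1.52 times in So(d18:1) libraries.

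The other endosomal receptors did not pass the test. Tlr13 (ENSMUSG00000033777, chromosome X from 106143204 to 106160493) was at 189, 195, 221 and 208 CPM in Control libraries against 178, 179, 192 and 192 CPM in So(d18:1) libraries. So(d18:1) replicates 3 and 4 lay above Control replicate 1, so the groups overlapped, with a log2 change of -0.13 ± 0.050 (SE; adjusted p = 0.106, edgeR) and an interval from -15.1% to -1.98%. Tlr3 (ENSMUSG00000031639, chromosome 8 from 45395665 to 45411080) was at 17.6, 21.2, 18.3 and 16.5 CPM in Control libraries against 18.9, 20.04, 21.6 and 22.6 CPM in So(d18:1) libraries. Control replicate 2 fell inside the So(d18:1) range, and the log2 change of 0.18 ± 0.085 (SE; adjusted p = 0.211, edgeR) had an interval from 0.0629% to 27.8%. An exon of Tlr3 overlaps the antisense gene Gm45542 over 381 bases, and with no strand setting given its count is uncertain by reads of that gene.

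Tlr7 and Tlr8, the receptors for single-stranded RNA, lie 40599 bases apart on the minus strand of the X chromosome. Tlr7 (ENSMUSG00000044583, chromosome X from 167304929 to 167330558) was at 278, 281, 256 and 261 CPM in Control libraries against 259, 263, 263 and 259 CPM in So(d18:1) libraries, all 4 of which lay inside the Control range. Its change was -2.89% with an interval from -8.63% to 3.22% (adjusted p = 0.594, edgeR). Tlr8 (ENSMUSG00000040522, chromosome X from 167242696 to 167264329) was at 474, 478, 419 and 423 CPM in Control libraries against 463, 446, 458 and 468 CPM in So(d18:1) libraries, again inside the Control range. The change of Tlr8 was 2.32% with an interval from -4.52% to 9.65% (adjusted p = 0.735, edgeR). Control replicates 1 and 2 were the higher and replicates 3 and 4 the lower for both genes. Per kilobase, Tlr9 stood at 0.305 to 0.396 times Tlr7 in Control and at 0.231 to 0.296 times in So(d18:1) libraries, without overlap.

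**Figure D2:**
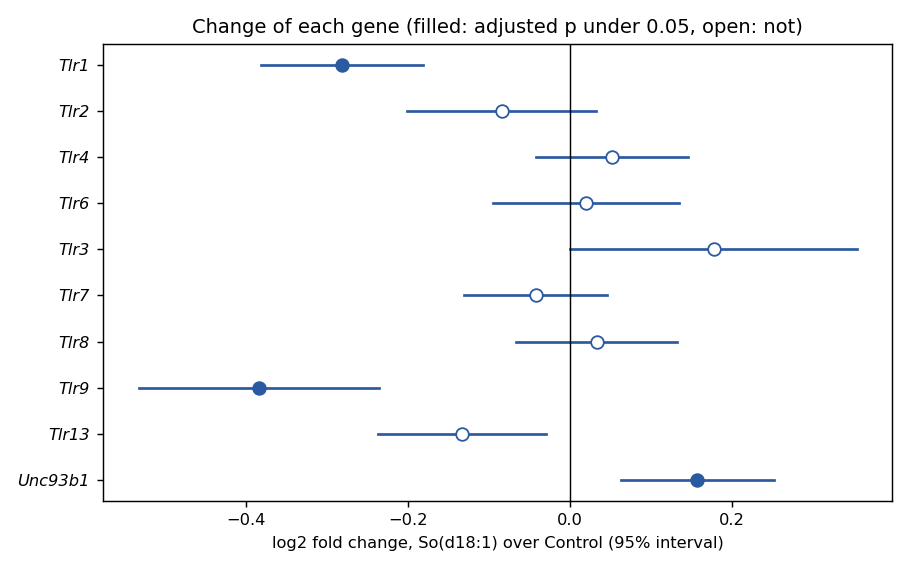
Log2 fold change of each gene, So(d18:1) over Control (horizontal axis), with its 95% interval. Filled points (Tlr1 at -0.28, Tlr9 at -0.38 and Unc93b1 at 0.16) had an adjusted p under 0.05, and open points did not.

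Levels of different genes were compared as CPM per kilobase of the deposited gene length. In Control libraries the order was Unc93b1 at 342 ± 19.2, Tlr2 at 131 ± 4.78, Tlr8 at 125 ± 8.91, Tlr7 at 65.9 ± 2.98 and Tlr13 at 47.2 ± 3.28 CPM per kilobase (SD, n = 4). It went on with Tlr1 at 39.0 ± 1.00, Tlr4 at 27.4 ± 1.498, Tlr9 at 22.7 ± 1.74, Tlr6 at 14.4 ± 0.893 and Tlr3 at 3.53 ± 0.381 CPM per kilobase (SD, n = 4). Only Tlr2 and Tlr8, of the neighbours in this order, had overlapping ranges in Control libraries. In So(d18:1) libraries their means stood the other way, 123 ± 11.5 for Tlr2 and 128 ± 2.66 CPM per kilobase for Tlr8 (SD, n = 4), and their ranges overlapped too. The ranges of Tlr9 and Tlr6, apart in Control libraries, overlapped in So(d18:1) libraries, at 14.9 to 18.8 and 13.8 to 15.1 CPM per kilobase. Tlr2 and Tlr8 took 27.4% and 26.3% of the summed level of the 9 receptors in Control libraries, and Tlr3 took 0.742%. The share of Tlr9 was 4.77% in Control and 3.83% in So(d18:1) libraries, and that of Tlr1 was 8.21% and 7.09%. Spread between Control libraries was widest for Tlr3, with a coefficient of variation of 10.8%, and narrowest for Tlr1, with 2.57%.

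**Figure D3:**
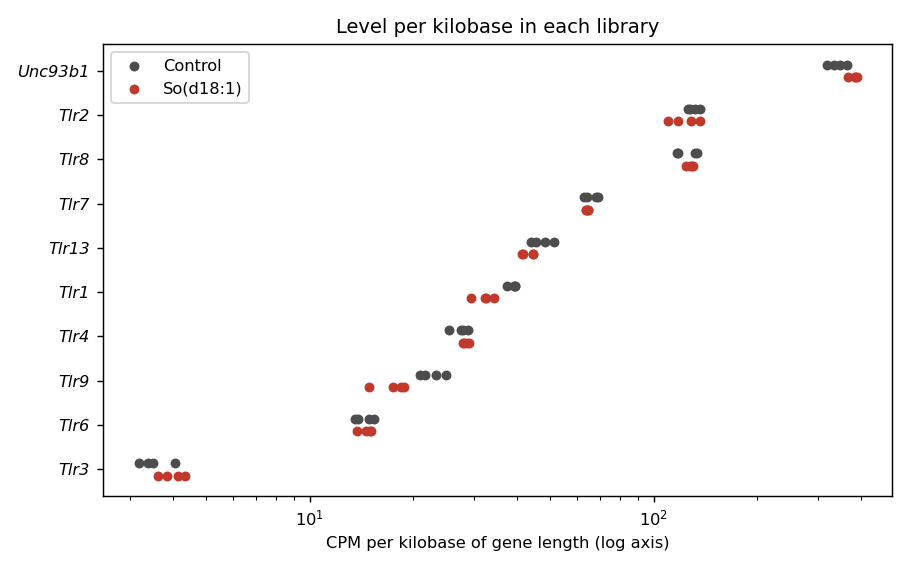
CPM per kilobase of gene length (log axis) of the 10 genes in each Control (grey) and So(d18:1) (red) library, in the order of the Control means. Unc93b1 is highest at 342 and Tlr3 lowest at 3.53 CPM per kilobase in Control libraries, and the red points of Tlr1 and Tlr9 lie left of the grey ones.

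The mouse genes Tlr5, Tlr11 and Tlr12, for flagellin and profilin, complete the family. Tlr5 was at 30.9 to 33.8 CPM in Control libraries against 26.4 to 34.8 CPM in So(d18:1) libraries, with a change of -7.17% and an interval from -16.4% to 3.03% (adjusted p = 0.404, edgeR). Tlr11 had 5 to 8 counts per Control and 3 to 4 per So(d18:1) library, and Tlr12 had 3 to 7 and 1 to 3. Both had too few counts to be tested.

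Of 107 other genes of the receptor pathway in 9 hand-written lists, 99 were tested, of which 7 rose and 8 fell (15.2% called, where 8.94% of all tested genes were). Their median log2 fold change was -0.033, and that of all tested genes was 0.0036. Receptor folding and trafficking had 14 genes tested, with 1 rise and 2 falls (21.4% called). Cnpy3, an endoplasmic reticulum chaperone that surface receptors and TLR9 need to fold and leave, rose. It was at 110, 105, 129 and 127 CPM in Control libraries against 161, 149, 153 and 171 CPM in So(d18:1) libraries, without overlap, an increase of 34.3% (log2 change 0.43 ± 0.065, SE, adjusted p = 0.000592, edgeR). Its call held with each library left out, with log2 fold changes between 0.38 and 0.47. Hsp90b1, which encodes the chaperone gp96 that works with CNPY3, had a log2 change of -0.14 ± 0.050 (SE; adjusted p = 0.0805, edgeR), with overlapping groups and exons shared with 3 other genes. Hsp90b1 passed on leaving out Control replicate 1 (adjusted p = 0.0480, edgeR), with no filter on low counts (0.0396) and with the replicate block (0.0321). Sdcbp, encoding syntenin-1, a protein that binds UNC93B1 and restrains TLR7, fell from 893 ± 26.7 to 770 ± 30.7 CPM (SD, n = 4 each; log2 fold change -0.21, adjusted p = 0.00267, edgeR). An exon of Sdcbp overlaps Nsmaf on the other strand over 78 bases. Rab7b, encoding a GTPase of late endosomes reported to lower TLR4 and TLR9, fell from 117.7 ± 14.3 to 91.5 ± 4.399 CPM (SD, n = 4 each; log2 fold change -0.36, adjusted p = 0.00683, edgeR).

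Among co-receptors, 8 genes were tested, of which 3 fell and none rose (37.5% called, where 8.94% of all tested genes were). Cd180, a receptor-like protein of B cells and macrophages that curbs TLR4 signalling, was at 73.6 to 77.8 CPM in Control libraries against 63.5 to 66.9 CPM in So(d18:1) libraries (log2 change -0.20 ± 0.046, SE, adjusted p = 0.00804, edgeR). An exon of Cd180 overlaps Mast4 on the other strand. Its partner Ly86, encoding MD-1, was at 261 to 270 CPM in Control libraries against 225 to 247 CPM in So(d18:1) libraries (log2 change -0.17 ± 0.043, SE, adjusted p = 0.0175, edgeR). Ly86 missed the threshold on leaving out So(d18:1) replicate 1 or 3, with adjusted p = 0.0586 and 0.0683 by edgeR. Cd180 and Ly86 thus fell by 12.9% and 10.8%, while the matching TLR4 pair did not pass. The TLR4 partner Ly96, encoding MD-2, was at 18.0 ± 0.665 CPM in Control libraries against 18.3 ± 0.768 CPM with So(d18:1) (SD, n = 4 each), with an interval of the change from -8.42% to 13.0% (adjusted p = 0.883, edgeR). Cd14, which hands lipopolysaccharide to TLR4, was at 548 ± 25.3 and 556 ± 39.8 CPM (SD, n = 4 each), with an interval from -5.57% to 9.24% (adjusted p = 0.842, edgeR). Clec7a, encoding the glucan receptor dectin-1 that acts beside TLR2, fell by 8.90% (adjusted p = 0.0496, edgeR), a call lost on leaving out any library, its adjusted p then lying between 0.0569 and 0.168. It was also lost with library size alone, with no filter on low counts and by limma-voom.

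Of 10 endosomal proteases and nucleases tested, 1 rose and 1 fell (20% called, where 8.94% of all tested genes were). Ctsl, encoding cathepsin L, an endosomal protease, rose from 1308 ± 59.2 to 1806 ± 94.99 CPM (SD, n = 4 each; log2 fold change 0.47, adjusted p = 1.25e-06, edgeR). Dnase2a, encoding a lysosomal DNase, fell from 113 ± 4.86 to 99.1 ± 2.96 CPM (SD, n = 4 each; log2 fold change -0.19, adjusted p = 0.0109, edgeR). Over 25% of the 50-base words of each occur in other genes, and an exon of each overlaps a gene on the other strand, so both counts are uncertain.

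None of the 5 adaptors tested by edgeR passed, where 8.94% of all tested genes did. None of them had an unadjusted p under 0.05, where 23.4% of all tested genes did. The interval of the change was -2.90% to 12.0% for Myd88, the adaptor of all receptors here but TLR3, -0.636% to 18.1% for Tirap, -14.8% to 4.85% for Ticam1 (TRIF) and -8.33% to 6.50% for Ticam2 (TRAM). Exons of Myd88, Tirap and Ticam2 overlap other genes, which leaves their counts uncertain. Of 21 proximal kinases and ubiquitin ligases, 2 rose and none fell (9.52% called, near the 8.94% of all tested genes). Irak2, a kinase of the MyD88 complex, rose by 11.4% (adjusted p = 0.0332, edgeR) and Peli2, a ubiquitin ligase that acts on IRAK1, by 11.3% (adjusted p = 0.0454, edgeR). Irak2 lost its call on leaving out Control replicate 1 or 2 or So(d18:1) replicate 1, 3 or 4 (adjusted p up to 0.0817). Peli2 lost it on leaving out any library but Control replicate 2 (adjusted p up to 0.140), and under upper quartile scaling, a minimum of 10 counts and limma-voom. Irak4, the first kinase of the complex, and Traf6, the ubiquitin ligase after it, had intervals from -7.36% to 8.86% and from -2.68% to 13.3%. Exons of Irak2, Irak4 and Peli2 overlap other genes, and 5.75%, 5.11% and 9.05% of their 50-base words occur elsewhere, so their counts are uncertain too.

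Among 5 interferon regulatory factors 1 rose (20% called, where 8.94% of all tested genes were). Irf1 went from 94.7 ± 7.35 to 112 ± 6.04 CPM (SD, n = 4 each; log2 fold change 0.24, adjusted p = 0.00693, edgeR). Irf5 and Irf7, which carry the signal of the endosomal receptors to cytokine and interferon genes, had intervals from -6.61% to 6.19% and from -14.4% to 36.5%. Exons of Irf1, Irf5 and Irf7 overlap genes on the other strand, and 1.24%, 10.96% and 0% of their 50-base words occur in other genes. Of 19 negative regulators, only Nrros passed by edgeR, and it fell (5.26% called). NRROS (LRRC33) is a leucine-rich repeat protein of myeloid cells reported to dampen Toll-like receptor signalling. Nrros fell by 8.88% (adjusted p = 0.0496, edgeR), a call lost on leaving out any library but So(d18:1) replicate 1 (adjusted p up to 0.149), with library size alone and with no filter on low counts.

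The last list holds genes that Toll-like receptors switch on. Of 20 listed, 16 were tested, of which 2 rose and 1 fell (18.75% called, where 8.94% of all tested genes were). Il6, Il12b, Nos2 and Ifnb1 had at most 8 counts in any library and were not tested. Tnf was at 5.15 to 6.60 CPM in Control libraries against 4.39 to 5.32 CPM in So(d18:1) libraries, with overlapping groups (adjusted p = 0.225, edgeR). Ier3, an immediate early gene, rose from 79.7 ± 4.11 to 121 ± 7.30 CPM (SD, n = 4 each; log2 fold change 0.60, adjusted p = 1.2e-07, edgeR). Acod1, encoding the enzyme that makes itaconate, rose from 14.1 ± 1.10 to 21.4 ± 1.95 CPM (SD, n = 4 each; log2 fold change 0.60, adjusted p = 7.5e-05, edgeR). The chemokine gene Ccl3 fell from 23.1 ± 3.11 to 15.5 ± 1.16 CPM (SD, n = 4 each; log2 fold change -0.58, adjusted p = 0.000277, edgeR). All 3 calls held with each library left out in turn.

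**Figure D4:**
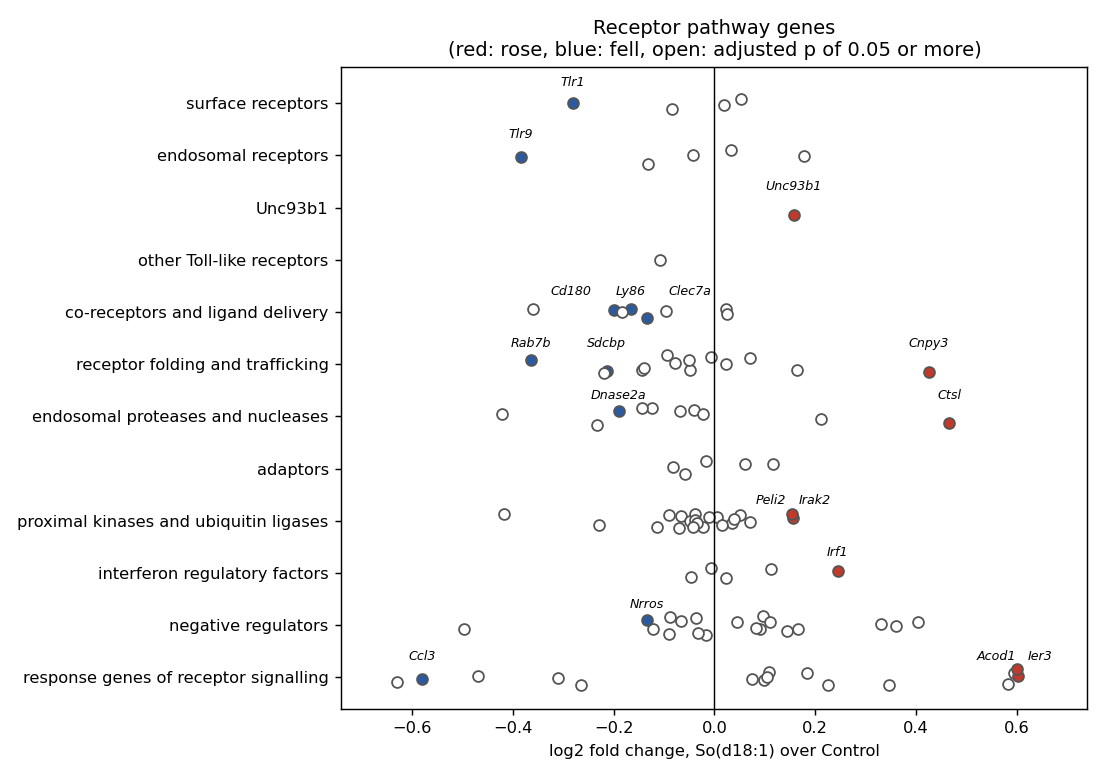
Log2 fold change, So(d18:1) over Control (horizontal axis), of each tested gene by role (rows; height within a row has no meaning). Red points rose, blue points fell and open points had an adjusted p of 0.05 or more; the adaptors are all open, and Cnpy3 at 0.43 and Ctsl at 0.47 stand apart from the other genes of their rows.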

How the data were processed

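Poly(A) RNA from 4 Control and 4 So(d18:1) BMDM samples was sequenced. The counts deposited by the authors are whole-number counts per gene and library, not normalized; per the submitters' processing notes reads were trimmed with Trim Galore 0.6.7, aligned with HISAT2 2.2.1 to mm10 and counted with featureCounts 2.0.1, and the gene length in bases (another deposited column) was used for levels per kilobase. The strand setting and the handling of multiply matching reads are not given in the sources used here. Identifiers were matched to GENCODE M21 (GRCm38) symbols, and identifiers without a symbol held at most 0.325% of counts. Genes were filtered with filterByExpr, scaled by TMM and tested with the quasi-likelihood F test (robust) in edgeR 4.0.16 under R 4.3.3, with group as the only term. Intervals are 95% and use the standard error, the absolute log2 fold change over the square root of F. Exact permutation tests over the 70 divisions of the libraries are two-sided. Alternatives used DESeq2 1.42.0 and limma 3.58.1, other scalings and filters, a replicate block and each library left out. The 10 genes, the pathway and marker lists and the rule for naming genes were chosen with earlier results of these data known. The rule names the 10 genes, fixed co-receptors, chaperones and adaptors, and up to 4 called genes per list with the smallest p. Tnf, Il6, Il12b, Nos2, Ifnb1, Xist, Pax5, Cd79b, Ccr2, Lyz2, Csf1r and Adgre1 were named after their values were seen. Protein sequences were not used here. Precision is set by 4 libraries per group. Figures were drawn with matplotlib 3.10.9.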

Additional observations from a re-analysis of the deposited data

Results flagged for a closer look

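For each gene described, the lowest and the highest library of a group were compared with the rest by Dixon's ratio, the distance to the next value over the whole range. It passed the critical value for 4 samples in 5 of 74 groups, and about 1 in 20, or 3.7, would do so by chance. In Control libraries the ratio was 0.862 for Tlr1, at a log2 CPM of 6.97 in replicate 4 beside 7.04 to 7.05 elsewhere, and 0.939 for Cd180, at 6.28 in replicate 3 against 6.20 to 6.21. It was 0.874 for Sdcbp, at 9.87 in replicate 3 against 9.78 to 9.79, 0.839 for Traf6, at 6.16 in replicate 1 against 6.03 to 6.05, and 0.870 for Ctsl, at 10.25 in replicate 4 against 10.37 to 10.39. All 5 lay in the Control group, and their cause was not tested. Leaving out Control replicate 4 gave Tlr1 a log2 fold change of -0.30.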

How the results depend on the processing

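Under DESeq2's size factors, upper quartile scaling, library size alone, a minimum of 10 counts in every library, no filter on low counts, DESeq2's Wald test and limma-voom, the 3 members called were Tlr1, Tlr9 and Unc93b1 each time. With one library left out 2 to 3 members were called, Tlr1 and Tlr9 each time. The log2 fold change of Unc93b1 then ranged from 0.13 to 0.19 and that of Tlr6 from -0.0081 to 0.056, reversed without Control replicate 4. The count of members past the threshold of the paper's methods stayed at 0 throughout, also with a fold change of at least 2. Pathway genes called numbered 14 to 21 under the alternatives to the processing and 12 to 14 with one library left out, against 15. Of these 15, 13 to 15 stayed called under the alternatives and 10 to 12 with one library left out. The labels do not say whether replicate numbers pair the samples. Deviations of same-numbered libraries correlated between -0.0035 and 0.10. Those of other pairs correlated between -0.136 and 0.107, a range too similar to decide it. With the replicate block 4 members were called, Tlr13 now among them (log2 fold change -0.13, adjusted p = 0.0456, edgeR), and 1784 genes in all against 1298. Without So(d18:1) replicate 2, 815 genes were called. Genes near 0 changed sign: Irak4 (-0.0064 with upper quartile scaling, -7.5e-05 with at least 10 counts in every library, -0.026 to 0.051 with one library left out), Irf5 (0.00076 with library size alone, -0.042 to 0.014), Cd14 (-0.022 to 0.056) and Ticam2 (-0.039 to 0.021). Irf7, at a log2 fold change of 0.11 with all libraries, ranged from -0.0020 to 0.20 with one library left out. The cause was not tested. Tlr11 and Tlr12, and Il6, Il12b, Nos2 and Ifnb1 among the response genes, had too few counts to be tested.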

Other observations

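The 3 genes whose log2 CPM followed that of Tlr1 most closely over the 8 libraries, among genes with a mean log2 CPM of at least 1, were Anapc15, Gm5086 and C920009B18Rik, with Pearson's r of 0.988, 0.985 and 0.981. The libraries share the treatment, so this likeness includes the difference between the groups. Anapc15, encoding a subunit of the anaphase-promoting complex, was at 30.2 to 34.8 CPM in Control libraries against 16.1 to 24.5 CPM in So(d18:1) libraries, and 34.1% of its 50-base words are shared with Tomt on the other strand. Gm5086 was at 42.5 to 45.8 CPM in Control libraries against 31.5 to 36.8 CPM in So(d18:1) libraries, and C920009B18Rik at 23.8 to 25.1 and 18.8 to 21.4 CPM.

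The neutrophil, monocyte and B cell markers, summed in the report, were accompanied by little sign of T cells: 4 of 5 T cell markers stayed under 1 CPM in all libraries, and only Cd4 was tested, which fell (log2 change -0.42, adjusted p = 0.00865, edgeR's quasi-likelihood test). None of 4 tested dendritic cell markers passed, and their summed level was 4.37 to 6.16 CPM in Control libraries against 5.38 to 6.56 CPM in So(d18:1) libraries. None of 3 tested plasmacytoid dendritic cell markers passed either, with a sum of 234 to 275 and 238 to 249.3 CPM that came mainly from Tcf4. None of 5 stromal markers passed, at 6.57 to 10.3 and 5.98 to 8.46 CPM. Of the macrophage markers, Itgam rose and Cd68 and Mertk fell, with log2 fold changes of 0.18, -0.22 and -0.38. The 4 Y-linked genes examined were tested and none passed; together with Xist they summed to 388 to 417 CPM in Control libraries against 384 to 399 CPM in So(d18:1) libraries.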
